A study of Homo sapiens with 4 samples.

Results

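The genes described here encode the Wnt ligands, their Frizzled receptors and co-receptors, and the secreted and membrane proteins that restrain them, as read in SUM159 cells. They were taken by symbol: protein-coding genes named WNT, FZD, DKK1 to DKK4 or SFRP1 to SFRP5, plus LRP5, LRP6, ROR1, ROR2, LGR5, RNF43, ZNRF3, AXIN2, LEF1 and TCF7. Of the 57500 genes counted, 47 met this rule, namely 19 WNT, 10 FZD, 4 DKK and 4 SFRP genes and the 10 genes named singly. The rule uses symbols only, but it was set with earlier results of these data known. Gene spans are given on GRCh38.

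Wnt proteins are lipid-bearing secreted ligands that bind a Frizzled receptor together with a co-receptor. With LRP5 or LRP6, binding stalls the complex that degrades beta-catenin, which then acts with LEF1 and TCF proteins on target genes such as AXIN2. With ROR1 or ROR2, ligands such as WNT5A act on cell shape and movement without beta-catenin. DKK1 blocks LRP5 and LRP6, SFRP proteins bind the ligands themselves, and RNF43 and ZNRF3 remove Frizzled receptors from the membrane unless an R-spondin engages an LGR receptor.

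SUM159 is a human triple-negative breast cancer line. The cells labelled as the parental control gave 1 RNA-seq library. The 3 NOS2KO libraries came from resistant clones 1, 5 and 6, each obtained after transfection with a double nickase plasmid against NOS2, the inducible nitric oxide synthase, and puromycin selection, and each sequenced once. All were grown in DMEM with serum and an antibiotic-antimycotic. The question put to these genes was whether their mRNA differed between the clones and the parental cells. Each is 1 line that had passed selection, which the parental cells had not, and no unedited clone was analysed here, so loss of NOS2 and the steps of cloning cannot be told apart. With 1 library against 3, an exact permutation test cannot go below p = 0.25, and the spread used in the tests comes from the clones alone.

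Between 90467395 and 122171287 reads were counted on genes per library, so 3 counts correspond to 0.0246 to 0.0332 CPM (the depth-scaled count), a limit that covers counting error only. NOS2 mRNA was near the floor everywhere, with 2 counts for the parental cells, 3 in clone 1, 1 in clone 6 and 18 in the library labelled clone 5. With only 2 counts in the parental library, a loss of NOS2 mRNA could not be seen in any clone. A nicked gene may also still be transcribed, so these counts do not check the genotype. The study picked its clones by iNOS protein on immunoblots and by nitrite and nitrate output, which these counts do not measure. The mesenchymal markers VIM, ZEB1, CD44, FN1, CDH2 and SPARC were expressed, and SPARC met the criterion given below as higher. ZEB1 read 83.7 CPM in the parental library and 39.5, 50.05 and 57.8 CPM in clones 1, labelled 5 and 6. CDH2 lay on both sides of the parental level, and VIM, CD44 and FN1 lay above it in every clone. None of these met that criterion. The epithelial genes CDH1 and EPCAM stayed under 0.5 CPM, and the keratins KRT8 and KRT18 were expressed in all libraries. The hormone receptors ESR1 and PGR reached 0.741 and 0.028 CPM at most. ERBB2 read 48.3 CPM in the parental library and 55.6, 106 and 99.1 CPM in clones 1, labelled 5 and 6. Of the basal keratins, KRT14 read 3.96 CPM in the parental cells and at most 0.209 CPM in the clones, meeting the criterion given below as lower, and KRT5 read 0.144 CPM there and between 0.0507 and 5.75 CPM in the clones. Among markers of other cell types, the hepatocyte gene ALB reached 0.026 CPM, the endothelial gene PECAM1 lay between 7.06 and 16.1 CPM, and the leukocyte gene PTPRC stood at 4.45 CPM in the parental library against 41.7 to 105 CPM in the clones. PTPRC met the criterion as higher, and whether it bears on the Wnt genes was not tested.

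Levels are CPM after TMM scaling. A member met the criterion of change where edgeR's quasi-likelihood test, run on the 3 clones against the parental library, returned a p below 0.05 before adjustment and a fitted difference of over 1 log2 unit either way. Of the 47 members, 32 reached 1 CPM in at least 1 library and 37 passed the low-count filter of the test. Of the tested members, 1 (2.7%), WNT5A, met the criterion as lower in the clones, against 5.34% of all 22511 genes tested. DKK1, FZD2 and SFRP2, 3 members (8.11%), met it as higher, against 4.24% of all genes. After Benjamini-Hochberg adjustment over all genes, edgeR left 0 members under an adjusted p of 0.05, with 4 members (10.8%, against 11.5% of all genes) under an unadjusted p of 0.05. DESeq2 left 2 members, DKK1 and FZD2, of the 34 to which it gave an adjusted p (5.88%, against 4.40% of all genes). In the whole table edgeR left 0.00444% of genes, a single gene, past the adjusted threshold.

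Promoter sequence is shown for WNT5A and DKK1, which met the criterion in opposite directions. Each is the 250 bases before a RefSeq gene start in build GRCh38.p14, written 5′ to 3′ on the gene's strand, with the letters TATAAA in capitals where present. The DKK1 window is chr10:52314031-52314280 on the plus strand, and the WNT5A window, before the inner of its listed starts, is chr3:55481399-55481648 on the minus strand. The DKK1 window ends before the annotated span of its gene, and the WNT5A window lies within the annotated span of WNT5A. The FZD2 promoter is not shown.
DKK1: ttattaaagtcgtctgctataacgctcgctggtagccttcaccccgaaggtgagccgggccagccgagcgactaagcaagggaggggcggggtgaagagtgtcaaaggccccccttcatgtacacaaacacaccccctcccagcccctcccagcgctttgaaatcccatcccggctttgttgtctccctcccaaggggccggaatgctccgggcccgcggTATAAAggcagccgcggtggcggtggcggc
WNT5A: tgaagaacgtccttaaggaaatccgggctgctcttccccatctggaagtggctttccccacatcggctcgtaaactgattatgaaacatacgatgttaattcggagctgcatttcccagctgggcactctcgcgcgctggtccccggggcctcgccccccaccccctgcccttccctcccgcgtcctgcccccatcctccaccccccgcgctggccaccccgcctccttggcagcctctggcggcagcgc

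The letters TATAAA, those of the TATA element of core promoters, were searched on both strands after these windows had been read. In the DKK1 window they began at -30 from the gene start, and the WNT5A window did not hold them. They were also in windows of FZD8, TCF7 and WNT5B. The 31 members with a RefSeq window had 36 windows, and 4 of these held the letters. Of 35116 promoter windows of the same length, 10.7% did. The TCF/LEF letters CTTTGAT, a form of the site read by LEF1 and TCF proteins, were in 0 member windows and in 2.26% of all windows. Only this form was searched, so other forms of the site were not counted. The letters CTTTGAA, which differ from it in the last base, are in the DKK1 window printed above. The AP-1 letters TGANTCA were in the window of 1 member, RNF43, at -47, and in 6.57% of all windows. No member window held more than 1 of the motifs searched, and both strands were searched for each. These matches describe letters, not binding.

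WNT5A, the main ligand of the beta-catenin-independent branch, stood lower in all 3 clones. It was read at 314 CPM in the parental cells, 97 CPM in clone 1, 133 CPM in clone 6 and 121 CPM in the library labelled clone 5. The clones lay close to one another, at a mean of 117 CPM ± 18.4 (SD, n = 3), and none came near the parental level, which was 2.35 to 3.23 times as high. The gene (ENSG00000114251) spans bases 55465715 to 55490539 of chromosome 3. Its fitted log2 fold change, clones minus parental, was -1.42 with an SE of 0.32 and an adjusted p of 0.325 in edgeR's quasi-likelihood test, and that adjusted p ran from 0.0581 to 0.739 over the other settings. It met the criterion in every setting run.

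**Figure D1:**
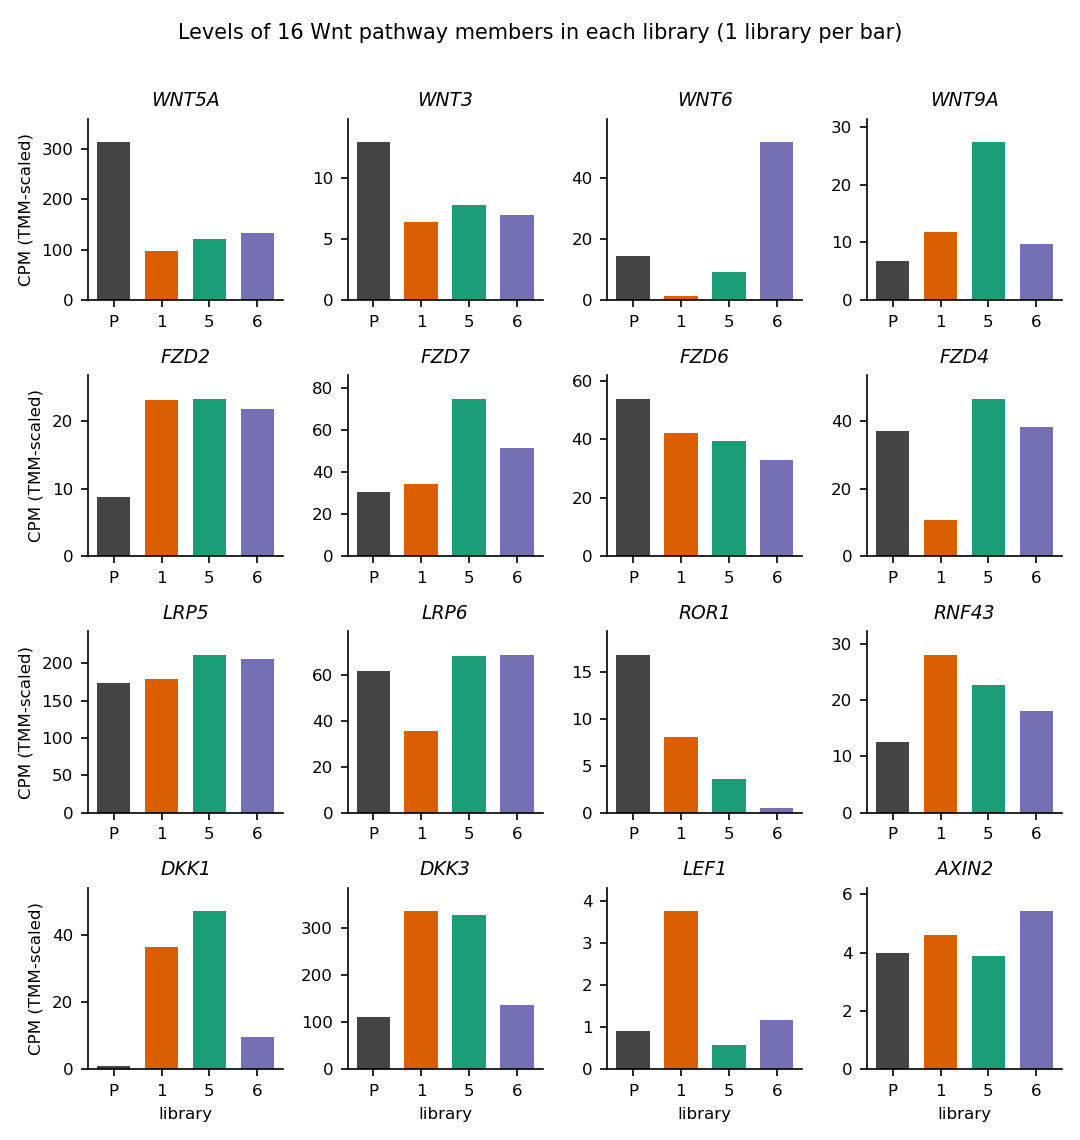
Level of 16 members in TMM-scaled CPM, each gene on its own linear axis from 0, with 1 bar for each library (P, parental; 1, 5 and 6, the clones as labelled) and no error bars, as each is a single library. WNT5A is at 314 CPM in the parental library and between 97 and 133 CPM in the clones, whereas DKK1 is at 0.819 CPM and between 9.69 and 46.9 CPM.

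Of the 11 WNT genes that reached 1 CPM, 7 lay below the parental level in every clone, 2 lay above it and 2 lay on both sides, under each of the 4 library scalings. Among all 15280 genes at that level, 34.1% lay below the parental library in every clone and 28.1% lay above. Only WNT5A among the 7 met the criterion. WNT3, a ligand of the beta-catenin branch, stood at 12.9 CPM in the parental library, 6.38 CPM in clone 1, 6.97 CPM in clone 6 and 7.76 CPM in the library labelled clone 5. These clones did not overlap the parental value, and the fitted log2 fold change was -0.88 (SE 0.39, edgeR adjusted p = 0.467). The other 5 of the 7 had fewer reads. WNT4 fell short of 1 CPM in every clone, with 0.0698, 0.488 and 0.730 CPM in clone 1, the library labelled clone 5 and clone 6 against 1.47 CPM in the parental cells. WNT10B read 4.03 CPM in the parental cells and 0.462, 2.26 and 1.26 CPM in the same order of clones. In both genes clone 1 was the lowest.

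WNT7B, in contrast, split the clones otherwise, since clone 1 at 4.64 CPM lay near the parental 5.14 CPM while the library labelled clone 5 and clone 6 read 1.18 and 1.33 CPM, and without clone 1 it met the criterion as lower. WNT2B differed less, with 1.64 CPM in the parental library and 0.985, 1.17 and 0.852 CPM in clones 1, labelled 5 and 6. Of its exon bases, 21.18% are shared with the opposite-strand gene ST7L, whose reads cannot be told apart from its own unless counting used strand. WNT9A and WNT5B were the 2 ligands above the parental level in every clone. WNT9A read 6.83 CPM there, 11.8 CPM in clone 1, 27.4 CPM for the library labelled clone 5 and 9.68 CPM in clone 6, with a fitted log2 fold change of 1.25 (SE 0.70, edgeR adjusted p = 0.562). WNT5B, the closest relative of WNT5A, read 1.08, 1.76, 6.03 and 1.72 CPM in the same order. The library labelled clone 5 held the highest value of both genes.

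WNT6 varied most among the clones of the ligands above 10 CPM. It stood at 14.5 CPM in the parental library, 1.44 CPM in clone 1, 51.5 CPM in clone 6 and 9.01 CPM in the library labelled clone 5. Clone 6 was thus above the parental cells and the other 2 below, and the fitted log2 fold change of 0.51 had an SE of 1.76 (edgeR adjusted p = 0.929). WNT10A starts 6129 bp beyond the end of WNT6 on chromosome 2, on the same strand. It read 4.66 CPM in the parental library and 0.244, 0.507 and 2.63 CPM in clone 1, the library labelled clone 5 and clone 6. The clones stood in the same order for both neighbours, although WNT10A stayed below the parental level in clone 6 and met the criterion as lower without that clone. WNT11 also lay on both sides, at 2.09 CPM in the parental cells, 0.349 CPM in clone 1, 2.82 CPM in clone 6 and 3.14 CPM in the library labelled clone 5.

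The remaining 8 ligand genes stayed under 1 CPM in all libraries. WNT9B had 0 counts throughout. Its annotated span begins 46 bp from that of WNT3, on the opposite strand. WNT3A went without a read in the parental library and clone 1, and had 2 counts in clone 6 and 20 in the library labelled clone 5, which made that library at least 5.65-fold higher than the parental one taken at 3 counts. WNT7A had 1 count in the parental library and 41, 11 and 3 in clones 1, labelled 5 and 6.

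Levels were also set per kilobase of exon length, taken over all annotated exons of a gene. The transcripts made may be shorter, so ranks between genes on this scale are approximate. The 19 ligands summed to 60.4 CPM per kb in the parental library and 20.1 in clone 1. The sum was 55.3 in clone 6 and 34.3 in the library labelled clone 5. WNT5A made up 69.0% of that sum in the parental library, 64.2% in clone 1 and 46.7% in the library labelled clone 5. In clone 6 WNT6 led instead, with 54.7%. The parental and clone 6 sums were close on this scale, with different leading ligands. In CPM without regard to length they were 368 and 213 and WNT5A led in clone 6 too, with 62.6%. In the parental library 11 ligands passed 1 CPM, against 6 in clone 1 and 9 in each of the others.

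**Figure D2:**
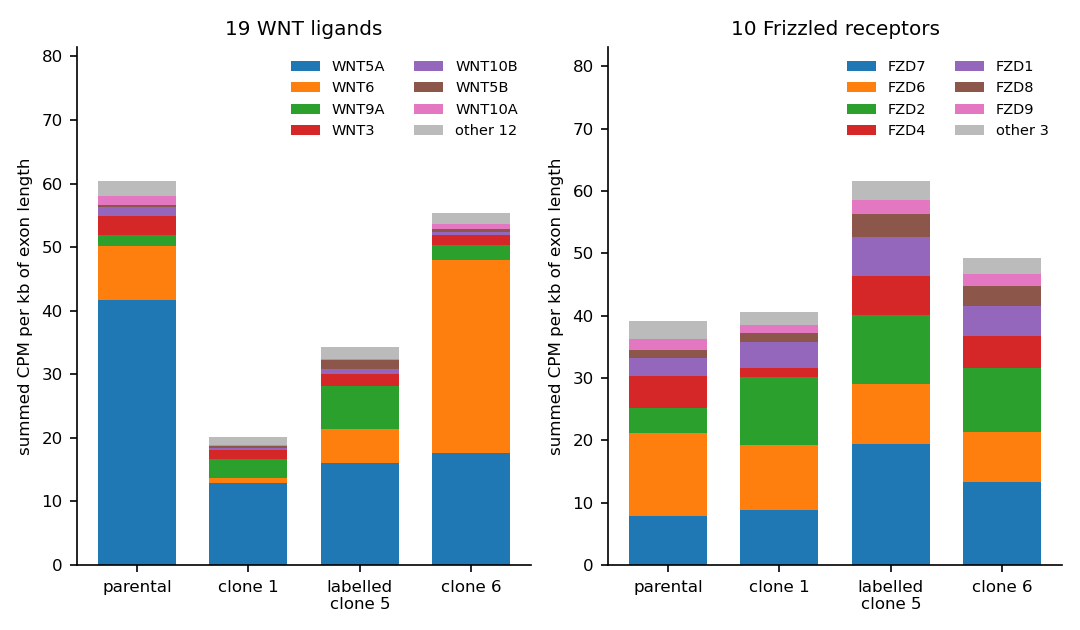
Summed level of the WNT ligands and of the Frizzled receptors in each library, in CPM per kilobase of exon length, stacked by gene, with the 7 leading genes coloured and the others in grey. The ligand sum is 60.4 in the parental library and 20.1 in clone 1, and WNT6 takes the place of WNT5A as the largest share in clone 6.

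Among the Frizzled receptors, FZD2 met the criterion and was nearly the same in all 3 clones. It read 8.76 CPM in the parental cells, 23.1 CPM in clone 1, 21.8 CPM in clone 6 and 23.3 CPM in the library labelled clone 5. The clone mean was 22.7 CPM ± 0.806 (SD, n = 3), and every clone was 2.49 to 2.66 times the parental value. FZD2 (ENSG00000180340) lies on chromosome 17 from 44557459 to 44559570. The fitted log2 fold change was 1.37 with an SE of 0.30, the edgeR adjusted p was 0.332 and ran from 0.0367 with DESeq2 to 0.739 across settings, and the criterion was met in each of them.

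FZD1, FZD7 and FZD8 also stood above the parental level in every clone without meeting the criterion. FZD1 read 20.5 CPM in the parental library, then 29.3, 43.4 and 33.1 CPM in clones 1, labelled 5 and 6, a fitted log2 fold change of 0.78 (SE 0.35, edgeR adjusted p = 0.487). FZD7, which shares much of its sequence with FZD1 and FZD2, read 30.3, 34.3, 74.8 and 51.2 CPM over the same 4 libraries, a fitted log2 fold change of 0.82 (SE 0.49, adjusted p = 0.576). Clone 1 lay beside the parental cells and the other clones apart from both. FZD8 showed that split again, with 5.21 CPM in the parental cells and 5.42 CPM in clone 1 against 13.2 CPM in clone 6 and 14.8 CPM in the library labelled clone 5 (fitted log2 fold change 1.09, SE 0.67, adjusted p = 0.591). Without clone 1 both FZD7 and FZD8 met the criterion. With scaling by library size alone, FZD8 lay on both sides of the parental level.

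FZD6 was the 1 receptor below the parental level in every clone, at 53.8 CPM in the parental cells and 42.0, 39.4 and 32.8 CPM in clones 1, labelled 5 and 6 (fitted log2 fold change -0.50, SE 0.29, edgeR adjusted p = 0.546). FZD4 separated clone 1 from the rest, with 10.9 CPM there against 36.9 CPM in the parental library, 38.1 CPM in clone 6 and 46.6 CPM in the library labelled clone 5 (fitted log2 fold change -0.21, SE 0.82, adjusted p = 0.935). The opposite-strand gene PRSS23 covers 18.95% of FZD4 exon bases, and its own counts were 6892 for the parental library, 11390 in clone 1, 15605 in clone 6 and 30410 in the library labelled clone 5. Its part in the FZD4 counts was not tested. FZD3, FZD5 and FZD9 differed little. In the parental library, clone 1, the library labelled clone 5 and clone 6, FZD3 read 20.3, 13.4, 17.2 and 20.4 CPM, with a fitted log2 fold change of -0.26 (SE 0.37, adjusted p = 0.807). FZD5 read 10.1, 7.59, 11.4 and 7.95 CPM in that order, with -0.17 (SE 0.44, adjusted p = 0.90). FZD9 read 4.02, 3.03, 5.32 and 4.20 CPM. FZD10 was the receptor gene left under 1 CPM.

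The Frizzled sum was 39.2 CPM per kb in the parental library, 40.6 in clone 1, 49.3 in clone 6 and 61.6 in the library labelled clone 5. On this per-length scale FZD6 led in the parental library with 33.8% of the sum, FZD2 led in clone 1 with 27.0%, and FZD7 led in clone 6 and the library labelled clone 5, with 26.9% and 31.5%. All libraries had 9 receptor genes past 1 CPM, so the order among receptors differed rather than the set present.

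LRP5 and LRP6, the beta-catenin branch co-receptors, were similar in the parental cells and most clones. LRP5 read 174, 178, 211 and 206 CPM in the parental library, clone 1, the library labelled clone 5 and clone 6, with a fitted log2 fold change of 0.19 (SE 0.29, edgeR adjusted p = 0.815), and lay on both sides of the parental level when scaled by library size alone. LRP6 read 62.0, 68.2 and 68.8 CPM in the parental library, the library labelled clone 5 and clone 6, and 35.6 CPM in clone 1. Its fitted log2 fold change of -0.11 (SE 0.46, adjusted p = 0.943) turned to 0.01 with upper quartile scaling and to 0.15 without clone 1.

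ROR1, a receptor for WNT5A, was among the 3 members more than 1 log2 unit below the parental library in every clone, with WNT4 and WNT5A. Over all genes at 1 CPM or more, 5.93% were lower by that much in every clone, beside 3 of 32 members. With each of the other 3 scalings only ROR1 and WNT5A remained, as WNT4 in clone 6 stood at a log2 ratio of -1.01 with TMM. ROR1 stood at 16.8 CPM in the parental library, 8.06 CPM in clone 1, 0.517 CPM in clone 6 and 3.64 CPM in the library labelled clone 5. All clones lay below the parental value but far from one another, and the fitted log2 fold change of -2.05 had an SE of 1.37 (edgeR adjusted p = 0.569). ROR2, its paralog, read 3.33 CPM in the parental library, 2.83 CPM in clone 1 and 3.23 CPM in the library labelled clone 5 but 0.436 CPM in clone 6. Clone 6 thus held the least of both receptors. ROR2 was below the parental level in every clone with TMM scaling and on both sides of it with upper quartile scaling or library size alone.

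RNF43 and ZNRF3, the paired membrane ubiquitin ligases, lay on opposite sides. RNF43 read 12.6 CPM in the parental cells and 28.0, 22.7 and 18.0 CPM in clones 1, labelled 5 and 6, above the parental value in all, with a fitted log2 fold change of 0.86 (SE 0.38, edgeR adjusted p = 0.486). The antisense gene TSPOAP1-AS1 covers 20.27% of RNF43 exon bases and had 23 to 61 counts per library. The same-strand gene SUPT4H1 covers 1.91% of them. It had 4519 counts in the parental library and 8781, 5740 and 6953 in clones 1, labelled 5 and 6. The part of either gene in the RNF43 counts was not tested. ZNRF3 read 20.1 CPM in the parental cells and 18.1, 12.7 and 12.5 CPM in the same clones, all below it (fitted log2 fold change -0.48, SE 0.39, adjusted p = 0.653). Neither met the criterion. LGR5, a receptor for R-spondins, was near the floor in 3 libraries, with 3 counts in the parental cells, 1 in clone 1 and 2 in clone 6, but had 120 counts, 1.13 CPM, in the library labelled clone 5. That library was 5.08 log2 units above the parental one, with a counting interval of 3.50 to 7.38 (95%, exact).

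DKK1, the secreted inhibitor of LRP5 and LRP6, showed the largest fitted difference of the members that met the criterion. The parental library held 74 counts, against 4159 in clone 1, 955 in clone 6 and 5001 in the library labelled clone 5. In CPM these were 0.819, 36.3, 9.69 and 46.9. Every clone stood far above the parental library, at 11.8 to 57.3 times its level, with clone 6 the lowest of the clones. The clone mean was 31.0 CPM ± 19.2 (SD, n = 3). On the log2 scale clone 1 exceeded the parental library by 5.47 (95% exact counting interval 5.14 to 5.82), the library labelled clone 5 by 5.84 (5.51 to 6.19) and clone 6 by 3.56 (3.22 to 3.93). DKK1 (ENSG00000107984) occupies chromosome 10 from 52314296 to 52318042, next to the window printed above. The fitted log2 fold change was 5.24 with an SE of 0.91 and an edgeR adjusted p of 0.332. Other settings gave adjusted p values from 3.1e-06 with DESeq2 to 0.720, and DKK1 met the criterion in all of them.

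**Figure D3:**
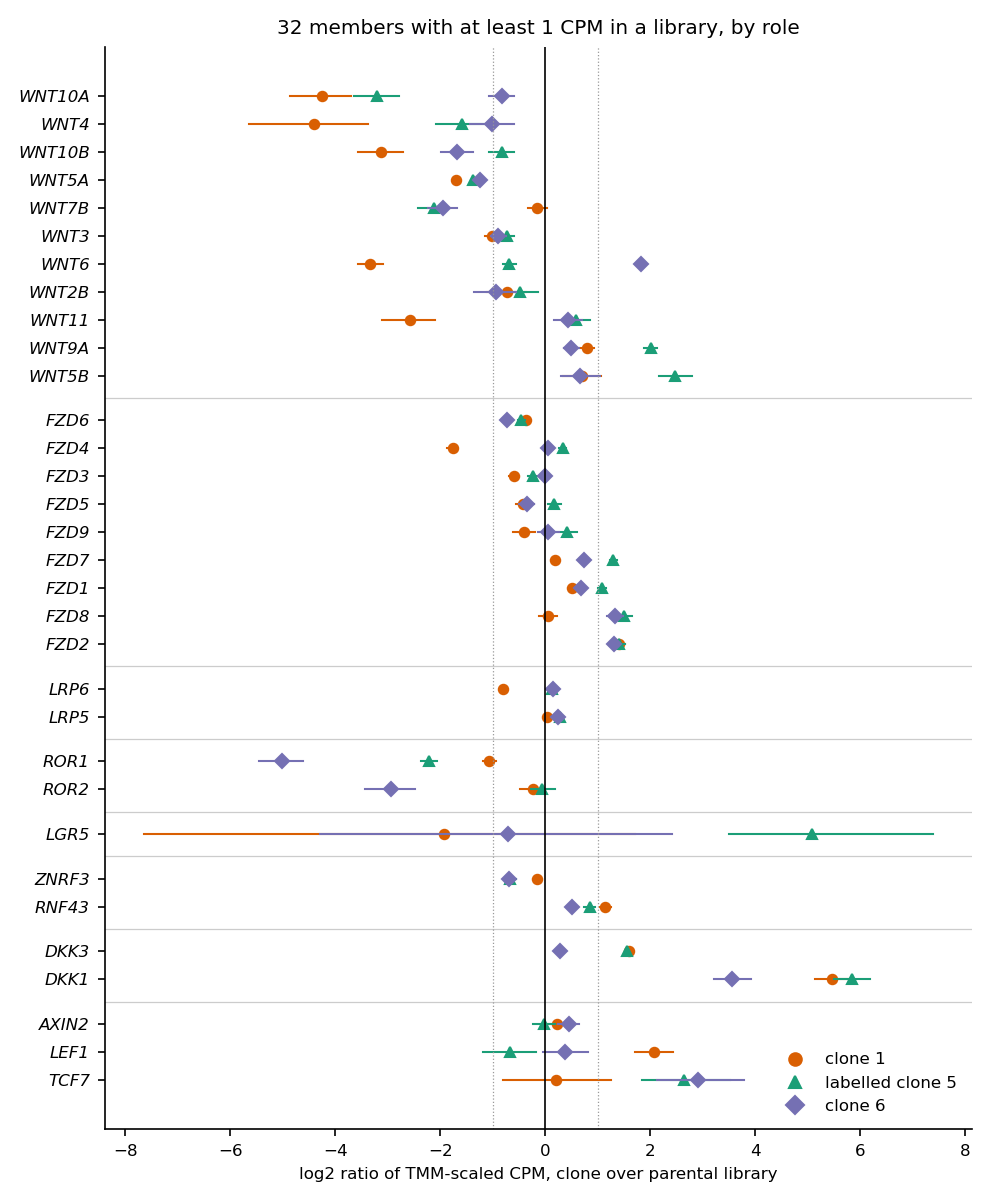
Log2 ratio of each clone to the parental library for the members that reached 1 CPM, from TMM-scaled CPM, grouped by role, with bars for the 95% exact counting interval and dotted lines 1 log2 unit either side of 0. The 3 DKK1 ratios lie between 3.56 and 5.84, the 3 FZD2 ratios between 1.31 and 1.41, and the WNT6 ratios run from -3.33 to 1.83.

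DKK1 and FZD2 were the 2 members more than 1 log2 unit above the parental library in every clone, a pattern held by 5.39% of all genes at that level. DKK3, a relative of DKK1 that does not block LRP6 in the same way, had the highest level per kb of exon length among the DKK and SFRP genes. It read 111 CPM in the parental cells, 335 CPM in clone 1, 136 CPM in clone 6 and 328 CPM in the library labelled clone 5. Clone 6 lay close to the parental cells and the other clones at 3.01 and 2.95 times their level, and the fitted log2 fold change was 1.26 (SE 0.59, edgeR adjusted p = 0.515). DKK3 met the criterion without clone 6. Clone 6 was the lowest of the clones for DKK1 and DKK3 alike. DKK2 stayed under 1 CPM and DKK4 had 0 counts in all libraries.

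No SFRP gene reached 1 CPM. SFRP2 nevertheless met the criterion, with 10 counts for the parental cells, 51 in clone 1, 57 in clone 6 and 55 in the library labelled clone 5, or 0.111, 0.445, 0.578 and 0.516 CPM. The clones were close to one another and all above the single parental value (fitted log2 fold change 2.20, SE 0.66, edgeR adjusted p = 0.393, 0.164 to 0.778 in other settings). Among genes at 1 CPM or more, a level SFRP2 did not reach, 28.1% lay above the parental library in every clone. The call was lost without the library labelled clone 5, without clone 6 and with the bias-adjusted form of the test, and the gene was not tested at a minimum of 1 CPM. SFRP1 had 71 counts in the library labelled clone 5, 1 in the parental library, 0 in clone 1 and 5 in clone 6. SFRP4 had 1, 2, 32 and 17 counts in the parental library, clone 1, the library labelled clone 5 and clone 6. SFRP5 had 4 counts in the parental library and 0 in every clone.

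**Figure D4:**
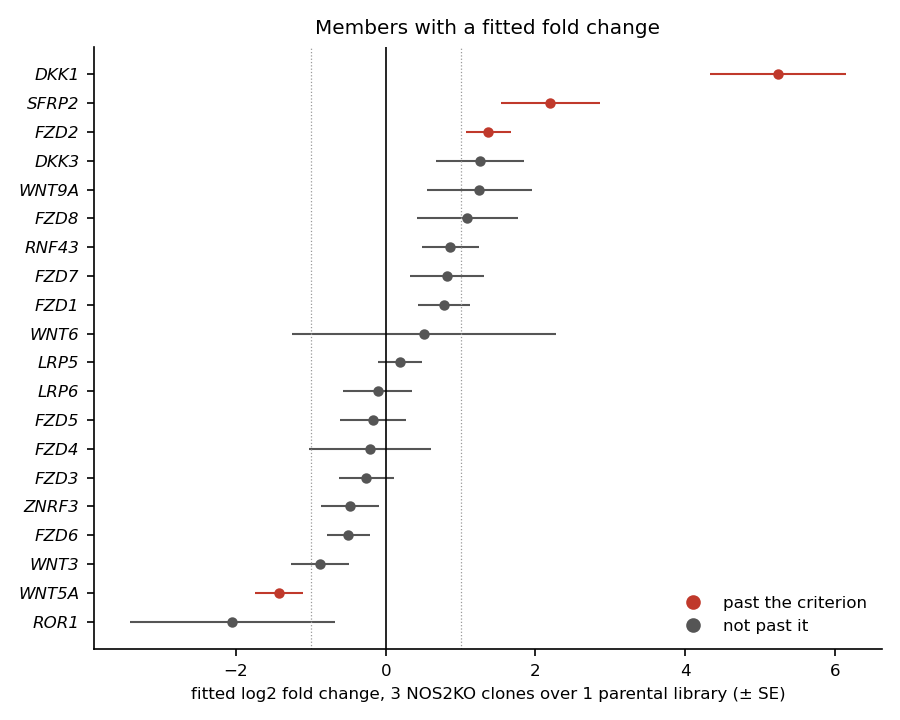
Fitted log2 fold change of the 3 clones against the parental library for the 20 members at 10 CPM or more in a library or past the criterion, with bars for the SE and the members past the criterion in red. DKK1 at 5.24, SFRP2 at 2.20, FZD2 at 1.37 and WNT5A at -1.42 met the criterion, and ROR1 at -2.05 with an SE of 1.37 did not.

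The nuclear readers and the target AXIN2 gave no common direction. AXIN2, which beta-catenin signalling induces in most tissues, read 3.97 CPM in the parental library, 4.62 CPM in clone 1, 5.42 CPM in clone 6 and 3.90 CPM in the library labelled clone 5. The 4 values were close, with a fitted log2 fold change of 0.23 (SE 0.48, edgeR adjusted p = 0.876), and the clones all lay above the parental cells with upper quartile or library size scaling. LEF1 read 0.896 CPM in the parental cells, 3.76 CPM in clone 1, 1.17 CPM in clone 6 and 0.563 CPM in the library labelled clone 5, so that clone 1 stood apart. TCF7 read 0.166 and 0.192 CPM in the parental library and clone 1 against 1.03 and 1.25 CPM in the library labelled clone 5 and clone 6, which put clone 1 with the parental cells, and it met the criterion as higher without clone 1. The opposite-strand gene SKP1 covers 2.09% of TCF7 exon bases and had 13172 to 26503 counts per library. Its part in the TCF7 counts was not tested.

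The clones differed from one another in these genes about as often as from the parental library. Of the 32 members at 1 CPM or more, 15 lay more than 1 log2 unit from the parental value in clone 1 (46.9%, against 29.9% of all genes), 5 of them higher and 10 lower. In the library labelled clone 5 it was again 15 members (46.9%, against 28.9%), but 10 higher and 5 lower. In clone 6 it was 11 members (34.4%, against 28.6%), 5 higher and 6 lower. These counts share the parental library. Between clones, 15 members differed by that much between clone 1 and the library labelled clone 5 (46.9%, against 24.0% of all genes). Between clones 1 and 6 it was also 15, against 23.5%, and between clone 6 and the library labelled clone 5 it was 10, or 31.2%, against 11.5%. Clone 6 and the library labelled clone 5 were the closest pair by this count, as over all genes. The median fitted log2 fold change of the 37 tested members was 0.23, beside 0.10 over all genes, with 22 above 0 and 15 below.

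A list of 95 other Wnt pathway genes, chosen by role with earlier results of these data known, held 87 tested genes. Of these, 8 (9.2%) met the criterion as lower and 6 (6.9%) as higher, beside the 5.34% and 4.24% of all genes. After adjustment edgeR left 0 under an adjusted p of 0.05, with 19 (21.8%, against 11.5% of all genes) under an unadjusted p of 0.05, and DESeq2 left 5 (6.10%, against 4.40%). The median fitted log2 fold change of the list was -0.01. Outside the cell, TPBG, a membrane inhibitor of Wnt signalling, read 354 CPM in the parental library and 121, 182 and 156 CPM in clones 1, labelled 5 and 6. TRABD2B, a protease that trims Wnt proteins, had few reads, with 22 counts (0.243 CPM) in the parental library and 0, 1 and 1 in the same clones. Both met the criterion as lower. LGR6, an R-spondin receptor related to LGR5, was above the parental 2.72 CPM in every clone, at 13.7, 94.8 and 7.34 CPM, without meeting the criterion (fitted log2 fold change 3.83, SE 1.49, adjusted p = 0.508). As with LGR5, the library labelled clone 5 held the highest LGR6 value. LGR4 also lay above its parental 33.85 CPM in every clone, at 37.57, 66.55 and 63.44 CPM, without meeting the criterion.

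Inside the cell, AXIN1, the scaffold of the destruction complex, read 98.1 CPM in the parental library and 48.5, 36.1 and 32.2 CPM in clones 1, labelled 5 and 6. TNKS, the tankyrase that marks AXIN proteins for degradation, read 68.7 CPM against 30.1, 36.1 and 32.9 CPM. Both met the criterion as lower, at fitted log2 fold changes of -1.33 (SE 0.34) and -1.06 (SE 0.27), each with an edgeR adjusted p of 0.332. Both lay below the single parental library in every clone, as did 34.1% of all genes at 1 CPM or more. CTNNB1, which encodes beta-catenin, read 216, 432, 327 and 239 CPM in the parental library, clone 1, the library labelled clone 5 and clone 6 (fitted log2 fold change 0.62, SE 0.42, adjusted p = 0.617). Of the TLE co-repressors that bind TCF proteins, TLE1 met the criterion as lower, from 6.13 CPM in the parental library to between 0.304 and 0.645 CPM in the clones. TLE4 met it as higher, from 10.6 CPM to between 27.5 and 35.4 CPM, as did TLE2, from 41.9 CPM to between 71.2 and 111 CPM. PYGO1, a beta-catenin cofactor, met it as lower.

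Among the 17 feedback and target genes of the list, 15 were tested, 3 met the criterion as higher (JUN, TNFRSF19 and PROX1) and 0 as lower, where 4.24% and 5.34% of all genes did. JUN, an AP-1 subunit with many other inputs, read 108 CPM in the parental cells and 398, 234 and 328 CPM in clones 1, labelled 5 and 6. TNFRSF19 read 4.86 CPM against 14.1, 35.3 and 49.9 CPM. The median fitted log2 fold change of the tested feedback and target genes was 0.65, but they did not share a direction. FOSL1 read 70.5 CPM in the parental library and 51.1, 24.6 and 10.85 CPM in the same clones (fitted log2 fold change -1.29, SE 0.85). MYC read 604 CPM against 672, 129 and 220 CPM (fitted log2 fold change -0.83, SE 0.96). Neither met the criterion. Of the 15 genes of the polarity and calcium branch, SCRIB and PLCB1 met the criterion as lower (5.34% of all genes did) and DAAM1, a formin that acts below Frizzled receptors, as higher, from 6.71 CPM to between 15.4 and 16.6 CPM. SCRIB, a polarity scaffold, read 194 CPM in the parental library and 78.9, 77.4 and 69.5 CPM in the clones.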

How the data were processed

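Whole-gene read counts of 4 libraries were used as deposited. The authors made poly(A)-selected, paired-end RNA-seq libraries and counted reads per gene; the submitters' processing notes name bcl2fastq 2.17, Trimmomatic 0.36, STAR 2.5.2b, Subread 1.5.2 with featureCounts, DESeq2 and GRCh38, with no role or order. The strand setting, annotation release and treatment of ambiguous reads are not given in the sources used here, so reads shared with overlapping genes could be counted to either or dropped. Samples were grouped by their labelled genotype. The NOS2KO libraries are separate clones, and no separate cultures of 1 clone are stated.

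Genes were named with GENCODE v29 (56898 of 57500 matched; 46 of 47 members had the same span). Counts were scaled by TMM and tested over 22511 genes kept by filterByExpr, with edgeR 4.0.16 in R 4.3.3 (quasi-likelihood, 2 residual degrees of freedom, common dispersion 0.3189) and Benjamini-Hochberg adjustment; limma 3.58.1 was loaded with it. DESeq2 1.42.0, 3 other scalings, 2 other filters, 2 other forms of the test and leaving out each clone were alternatives. The test was also run on simulated counts, made after the fit to these data with its spread or a smaller one. Clone-to-parental ratios carry 95% Clopper-Pearson intervals, which cover counting error only. Members at 1 CPM or more are named with all values, and those at 10 CPM or more or past the criterion with their fits. CPM per kb divides by the length of all annotated exons of a gene. The members, gene lists and criterion were chosen with earlier results of these data known, and the TATAAA search was added after seeing the sequences.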

Additional observations from a re-analysis of the deposited data

How the results depend on the processing

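WNT5A, DKK1 and FZD2 met the criterion in every setting run. Leaving out each clone gave 1 to 2 members lower and 2 to 7 higher. Without clone 1 the 7 were DKK1, FZD2, FZD7, FZD8, SFRP2, SFRP4 and TCF7, with WNT5A and WNT7B lower, and without clone 6 WNT10A joined WNT5A as lower and DKK3 joined DKK1 and FZD2 as higher. SFRP2 no longer met it without the library labelled clone 5, without clone 6 or with the bias-adjusted test. The members over 1 log2 unit higher in every clone numbered 2 to 4 when a clone was left out, and the pathway genes lower 5 to 12. DESeq2 left 2 members under an adjusted p of 0.05. The median over the tested members was 0.49 with no filter, 0.08 at a minimum of 1 CPM, 0.52 with DESeq2 and 0.02 to 0.26 without a clone. LRP6 turned to 0.01 with upper quartile scaling and ran from -0.25 to 0.15 without a clone, FZD4 from -0.57 to 0.20 and WNT6 from -1.47 to 1.07. The cause of these changes was not tested. Of 219 alternatives for the 20 members with a printed fit, 213 kept direction and side of the threshold, 4 turned direction and 2, DKK1 and FZD2 with DESeq2, passed it. Upper quartile scaling shifted the median of all genes by 0.10. Over all genes edgeR left 1 past an adjusted p of 0.05, 6 with no filter, 5 with the bias-adjusted test and 0 without any 1 clone, and DESeq2 825. Without a clone 825 to 1608 genes met the criterion as lower and 641 to 1791 as higher, beside 1202 and 955 with all, and 1675 as higher with DESeq2. The tests rest on 2 residual degrees of freedom. No paired analysis was possible because there is only 1 parental library and the clones' numbers are names.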
